A study of Mus musculus with 19 samples.

Results

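The genes described here are 53 subunits of chromatin remodelling complexes other than INO80, taken from the 51912 genes counted in each of 19 libraries of mouse neocortex at embryonic day (E)13.5. They were chosen by name, as members of the SWI/SNF (BAF and PBAF), ISWI, CHD and NuRD, SRCAP and EP400 complexes, with the subunits that INO80 shares with other complexes, and all 53 gene identifiers were found. The tissue came from 7 ctrl embryos, 5 cKO-E embryos, in which *Emx1*-Cre deletes *Ino80*, and 7 dKO-E embryos, in which the same Cre deletes both *Ino80* and *Trp53*, the gene of p53. All embryos were of mixed C57BL/6 and 129 background, and the labels call the ctrl embryos control without listing their alleles. *Emx1*-Cre recombines in cortical neural progenitor cells and their descendants, so interneurons that migrate in, microglia, blood vessels and blood in the dissected cortex keep the undeleted alleles.

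Chromatin remodellers are ATPases of the Snf2 family that slide, eject or exchange nucleosomes, each in a complex with subunits that choose where it acts. In the developing cortex several complexes change subunits as progenitors become neurons. The BAF complex of progenitors holds ACTL6A and the PHF10 or DPF2 proteins, and that of neurons holds ACTL6B with DPF1 or DPF3. In NuRD, CHD4 serves progenitors, whereas CHD3 and CHD5 are known from neurons. ISWI ATPases pair with large partners that read histone marks, among them BPTF, RSF1 and the BAZ proteins. INO80 shares RUVBL1, RUVBL2, ACTL6A, MCRS1 and the DNA-binding factor YY1 with other complexes or pathways.

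Depth on genes ran from 820915 to 8095810 counts per library (median 2952788), and a count is 1 cDNA molecule told apart by its tag. Levels are given as CPM, counts scaled to the library's total and its TMM factor, and levels of different genes are compared only as CPM per kilobase (kb) of exon. Sequencing batch 1 held 4 ctrl, 3 cKO-E and 4 dKO-E embryos, batch 2 held 3, 2 and 2, and batch 3 held 1 dKO-E embryo. The 7 dKO-E embryos came from 2 litters, so litter and genotype are partly tied in dKO-E against ctrl. The mutants share no litter, so litter and genotype cannot be told apart in dKO-E against cKO-E. Sex labels matched sex-linked counts in 19 of 19 embryos. Males were ctrl embryos B, D and I, cKO-E embryo C and dKO-E embryos C to G, so sex is unbalanced between genotypes. For the 7 ctrl, 5 cKO-E and 7 dKO-E embryos in turn, mean ± SD of gene-level *Ino80* was 121 ± 7.23, 166 ± 17.7 and 186 ± 14.9 CPM, and that of *Trp53* was 43.8 ± 5.6, 39.2 ± 4.79 and 34.5 ± 4.78 CPM. Both values are sums over the whole gene and cannot show loss of the deleted exons. Of 15 p53 target genes listed, 14 rose in cKO-E (summed 607 to 747 CPM against 308 to 336 in ctrl), and the sum in dKO-E was 254 to 334 CPM. Only 6 of the 15 passed the filter on low counts in dKO-E against ctrl. Others may have been tested in cKO-E only through their high level there. Markers of cycling cells, intermediate progenitors and projection neurons were present in every library, apart from *Tubb3*, which was listed at 0 in all 19 libraries, as was the progenitor marker *Sox2*.

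In ctrl cortex the subunits spanned a wide range of levels per kb. *Smarca4*, the BAF ATPase known as BRG1, stood first at 90.7 ± 8.36 CPM per kb (SD, n = 7), and its lowest ctrl embryo lay above the highest value of the next gene. After it came the BAF subunit *Arid1b* at 69.4 ± 1.04, the NuRD ATPase *Chd4* at 68.6 ± 6.20, the BAF scaffold *Smarcc1* at 61.8 ± 3.80 and the NuRD methyl-binding protein *Mbd3* at 61.2 ± 6.43 CPM per kb. At the other end were the neuronal actin-related subunit *Actl6b* at 4.06 ± 1.19, the INO80-shared *Mcrs1* at 3.72 ± 0.625, the ATPase *Srcap* at 1.99 ± 0.287 and the neuronal NuRD ATPase *Chd5* at 1.2 ± 0.355 CPM per kb. Of the 52 neighbouring pairs in this order, only 3 had ranges over embryos that did not overlap, namely *Smarca4* above *Arid1b*, *Baz1b* above *Bptf*, and *Mcrs1* above *Srcap*. For *Srcap*, 61.7% of the exon length is also annotated to other genes on the same strand, and reads that fit both were not counted, so its level per kb is uncertain.

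**Figure D1:**
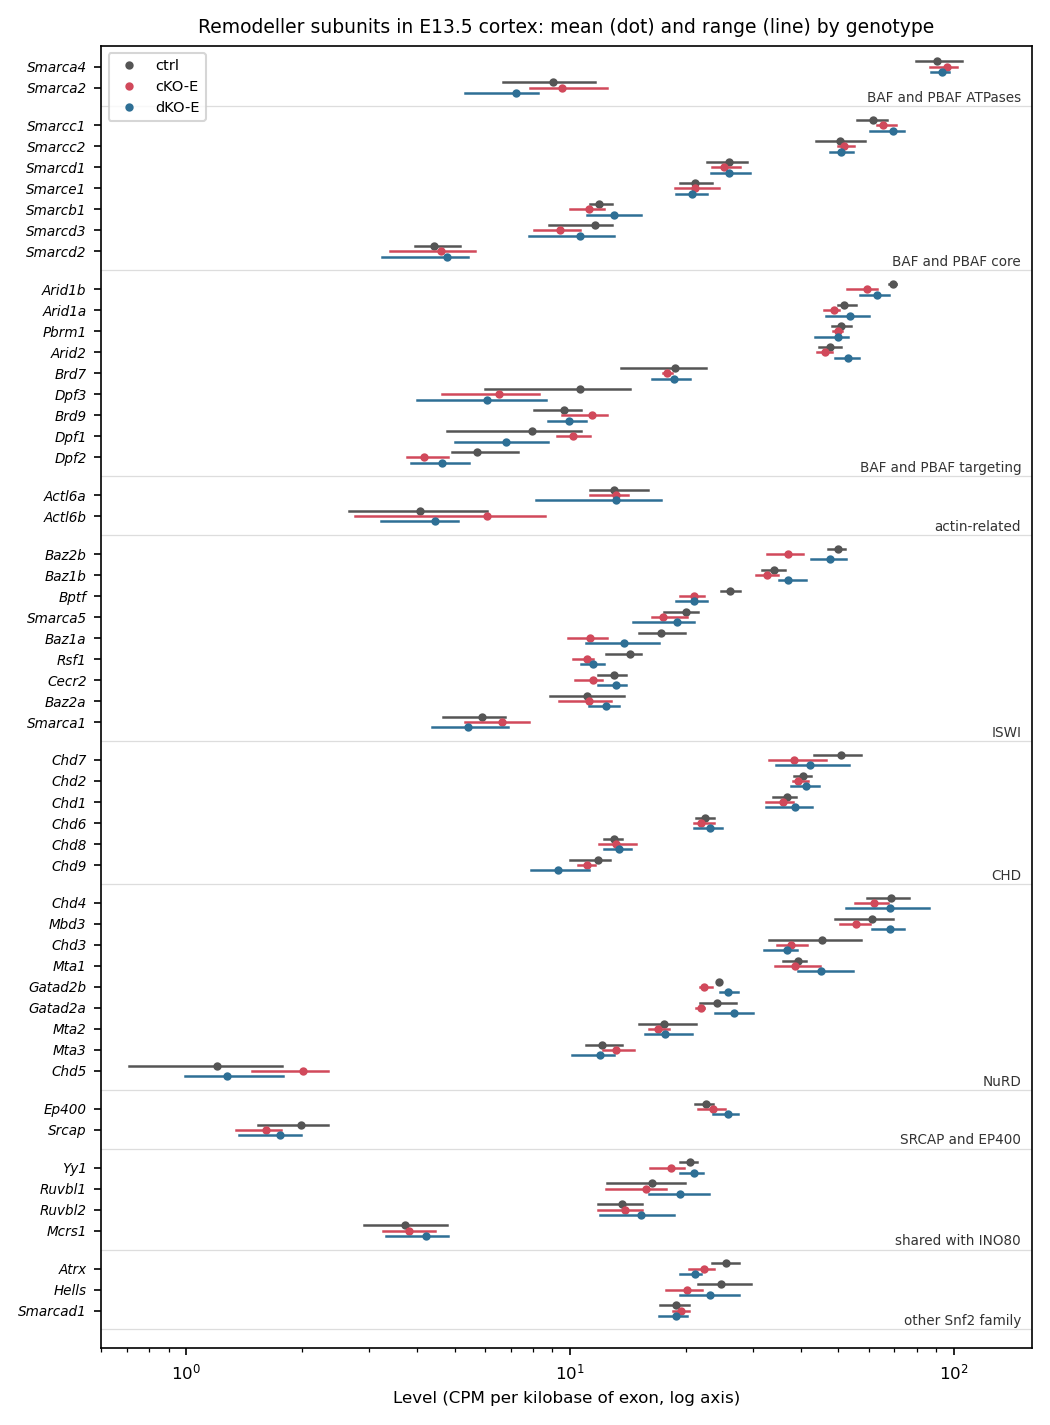
Level of each of the 53 subunits in CPM per kb of exon (log axis), by complex, as the mean (dot) and range (line) over 7 ctrl, 5 cKO-E and 7 dKO-E embryos. *Smarca4* leads at 90.7 CPM per kb in ctrl and *Chd5* is last at 1.2, and for most genes the 3 lines overlap.

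Among paralogues that can fill the same place, *Smarca4* exceeded *Smarca2*, *Actl6a* exceeded *Actl6b* and *Chd4* exceeded *Chd5* per kb in every ctrl embryo. The ratio of *Smarca2* to *Smarca4* had a median of 0.109 over ctrl embryos, that of *Actl6b* to *Actl6a* 0.328, and that of *Chd5* to *Chd4* 0.0153. The median ratio to *Dpf2* was 1.57 for *Dpf1* (0.654 to 1.94) and 1.96 for *Dpf3* (0.977 to 2.63), so neither exceeded *Dpf2* in every ctrl embryo. The ISWI ATPase *Smarca1* stood at 0.312 of *Smarca5*, and *Arid1a* at 0.736 of *Arid1b*.

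The ctrl embryos themselves differed by sequencing batch. Those of batch 1 came from litters 1, 4 and 5, with 3152460 to 5205035 counts. Those of batch 2 came from litters 5 and 7, with 1539303 to 2187537 counts. Batch, litter and depth can therefore not be fully told apart here. In 9 of 53 subunits (17%) the 4 ctrl embryos of batch 1 all lay above the 3 of batch 2, and in 4 (7.55%) all lay below, against 16.6% and 5.77% of the 9288 genes with a mean of at least 10 CPM. *Smarca2* read 144 to 166 CPM in ctrl embryos of batch 1 and 95.4 to 103 in those of batch 2, *Actl6b* 17.9 to 26.0 against 11.3 to 15.1, *Dpf3* 47.2 to 60.4 against 25.3 to 41.1, and *Chd3* 391 to 483 against 280 to 370. The 9 also held *Smarca4* (596 to 678 against 515 to 561 CPM), *Chd4* (554 to 612 against 477 to 521), *Smarca1*, *Mta3* and *Atrx*, while *Dpf1* and *Chd5*, known from neurons too, overlapped between batches. Summed projection neuron markers were 4078 to 4764 CPM in batch 1 ctrl embryos and 3015 to 3263 in batch 2. *Baz1a*, *Chd7*, *Gatad2a* and *Hells* were the 4 that lay lower in batch 1, and *Hells*, a remodeller of dividing cells, read 155 to 172 CPM there against 176 to 213. Summed markers of cycling cells were 1468 to 1566 CPM in batch 1 ctrl embryos and 1616 to 1833 in batch 2. In whole tissue, fewer cells of a type and less RNA per cell cannot be told apart.

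The first comparison asks which remodeller subunits change when *Ino80* is deleted. In cKO-E against ctrl, 12 of 53 subunits fell and 3 rose at a false discovery rate of 0.05 (edgeR's quasi-likelihood test, adjusted over 11660 genes), where 9.88% of all genes tested were lower and 7.31% higher. The subunits called in either direction were 28.3% of the list, against 17.2% of all genes. Among the 8705 genes with at least 10 counts in every library, all 53 subunits were tested and 13 were lower and 3 higher, where 21% of genes were called in either direction. The median log2 fold change of the 53 was -0.04 and that of all genes 0.02. At the study's threshold of 0.001, where 2.32% of genes were lower, 4 subunits were lower, all of them ISWI partners. In 7 subunits every cKO-E embryo lay below every ctrl embryo, where 5.49% of genes did, and 6 of these were called, the exception being *Gatad2b* (adjusted p = 0.0768).

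ISWI was the complex with the most falls in cKO-E, at 5 of 9 subunits, where 9.88% of all genes tested were lower. *Baz1a* (ENSMUSG00000035021.13), the ACF1 partner of SMARCA5 in the ACF and CHRAC complexes, lies on chromosome 12 of GRCm38 from 54892989 to 55014348. It read 76.9, 86.6, 70.7, 81.4 and 89.8 CPM in cKO-E embryos A to E. The 7 ctrl embryos ranged from 108 to 142 CPM with a median of 122, so the groups did not overlap. On the log2 scale *Baz1a* fell by 0.60 (SE 0.09, adjusted p = 0.000128). *Baz2b* (ENSMUSG00000026987.16, chromosome 2 from 59899363 to 60209839), a bromodomain partner of the ISWI ATPases, read 575, 692, 635, 630 and 713 CPM in the cKO-E embryos. All 5 lay below the ctrl range of 825 to 920 CPM, and the log2 fold change was -0.43 (SE 0.06, adjusted p = 7.4e-05). Of the subunits called, these were the ones that kept their call under each of the 16 other settings tried, sequencing batch 2 alone included, and with any 1 embryo left out. Besides them, only *Chd7* was called within each batch alone.

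*Rsf1* (ENSMUSG00000035623.14, chromosome 7 from 97579889 to 97692778), the histone chaperone subunit of the RSF complex, read 213, 215, 215, 193 and 218 CPM in cKO-E against 237 to 291 in ctrl (log2 fold change -0.36, SE 0.05, adjusted p = 0.00023). *Bptf* (ENSMUSG00000040481.17, chromosome 11 from 107033081 to 107132127), the large subunit of NURF that binds trimethylated lysine on histone H3, read 308, 300, 292, 274 and 314 CPM against 347 to 391 (log2 fold change -0.30, SE 0.05, adjusted p = 0.000505). In both genes every cKO-E embryo was below every ctrl embryo. Both fell within batch 1 alone, and in batch 2 the log2 fold changes were -0.31 and -0.28 with adjusted p = 0.102 for each. *Cecr2*, which forms the CERF complex in neural tissue, fell by 0.16 on the log2 scale (adjusted p = 0.0452), and its groups overlapped at 176 to 206 CPM against 202 to 239. That call was lost on leaving out any of 9 embryos, with an adjusted p of 0.0885 without cKO-E embryo A. The ISWI ATPases were not called: *Smarca5*, which all of these partners can join, read 127 to 157 CPM in cKO-E and 137 to 167 in ctrl (log2 fold change -0.18, adjusted p = 0.0922), and *Smarca1* stood at 0.14 (adjusted p = 0.452). *Baz1b* and *Baz2a* stood at -0.05 and 0.01.

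Of the 18 BAF and PBAF subunits other than the actin-related pair, 4 fell and 1 rose in cKO-E. Of all genes tested, 9.88% were lower and 7.31% higher. *Dpf3*, a histone-reading BAF subunit of neurons and muscle, read 19.6, 27.8, 35, 27.1 and 28.1 CPM in cKO-E against 25.3 to 60.4 in ctrl (log2 fold change -0.75, SE 0.19, adjusted p = 0.0103). The ctrl embryos F and H of batch 2, at 30.2 and 25.3 CPM, lay among the cKO-E embryos, and the log2 fold change was -0.99 in batch 1 and -0.21 in batch 2. *Dpf2*, its widely expressed paralogue, read 24.4 to 31.3 CPM against 32.1 to 47.5, without overlap (log2 fold change -0.44, SE 0.11, adjusted p = 0.0113), and was called in neither batch alone (-0.34 and -0.65, adjusted p = 0.0697 and 0.102). *Arid1b* (ENSMUSG00000069729.13, chromosome 17 from 4994332 to 5347656), the DNA-binding subunit whose human gene is mutated in Coffin-Siris syndrome, read 714, 797, 790, 663 and 787 CPM. Its ctrl embryos were tightly grouped between 854 and 892 CPM, and the log2 fold change was -0.21 (SE 0.05, adjusted p = 0.00707). *Arid1b* was called in neither batch alone (-0.20 and -0.24, adjusted p = 0.0515 and 0.135), nor with litter as a block (adjusted p = 0.106) or with no filter on low counts. *Smarcd3*, a subunit for which 48.2% of the exon length overlaps other genes on the opposite strand (whether counting used strand is not given in the sources used here), fell by 0.28 on the log2 scale (adjusted p = 0.033), a call that was lost on leaving out any of 9 embryos, with an adjusted p of 0.0851 without cKO-E embryo A. *Brd9*, which marks the non-canonical BAF complex, rose by 0.26 on the log2 scale (adjusted p = 0.0168), with adjusted p up to 0.0565 without cKO-E embryo A, B or C.

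The catalytic and scaffold subunits of BAF were not called in cKO-E. *Smarca4* had a log2 fold change of 0.09 (95% interval -0.04 to 0.22), *Smarcc2* of 0.04 (-0.09 to 0.17) and *Arid1a* of -0.08 (-0.18 to 0.02). The remaining members of the core, *Smarcb1*, *Smarcc1*, *Smarcd1*, *Smarcd2* and *Smarce1*, lay between -0.06 and 0.09. *Pbrm1*, *Arid2* and *Brd7*, which mark PBAF, lay between -0.08 and -0.02. *Smarca2* was at 0.07 and *Dpf1* at 0.31 (adjusted p = 0.806 and 0.179).

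*Chd5* and *Actl6b* had the largest rises in cKO-E. Both are known from neurons, as are *Dpf3*, which had the largest fall, and *Chd3*, at -0.26 without a call. *Chd5*, a NuRD ATPase, read 22.3, 20.6, 22.5, 14.2 and 16.6 CPM in cKO-E and 6.78 to 17.0 in ctrl, with overlap in embryos D and E (log2 fold change 0.75, SE 0.18, adjusted p = 0.00796). *Actl6b*, also known as BAF53b, read 29.0, 24.9, 36.8, 11.8 and 27.4 CPM against 11.3 to 26.0 (log2 fold change 0.60, SE 0.19, adjusted p = 0.0393). Embryo D, the shallowest library at 820915 counts, was the low value of both genes. The *Actl6b* call was lost on leaving out any of 9 embryos, with an adjusted p of 0.143 without cKO-E embryo C, and *Actl6b* was called in neither batch alone (adjusted p = 0.0521 and 0.155), nor *Chd5* in batch 2 (0.234). Of the 10 projection neuron markers listed, 9 were tested in cKO-E against ctrl, with 1 higher (*Stmn2*, log2 fold change 0.49) and 1 lower (*Fezf2*, -0.39), and their sum ranged from 3605 to 4500 CPM in cKO-E and from 3015 to 4764 in ctrl. All 4 Cajal-Retzius markers tested rose (summed 834 to 956 CPM against 514 to 653), and interneuron markers summed to 66.7 to 122 CPM against 9.05 to 88.9, with 1 of 4 tested called. Only 3 interneuron markers passed the filter on low counts in dKO-E against ctrl. Others may have been tested here only through their level in cKO-E. The part of these neuron markers in the rises of *Chd5* and *Actl6b* was not tested.

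In the CHD group, *Chd7* (ENSMUSG00000041235.12, chromosome 4 from 8690406 to 8867659), the remodeller mutated in CHARGE syndrome, read 455, 506, 538, 504 and 643 CPM in cKO-E against 596 to 790 in ctrl. Only cKO-E embryo E reached the ctrl range, and the log2 fold change was -0.40 (SE 0.09, adjusted p = 0.00526). *Chd1*, *Chd2*, *Chd6*, *Chd8* and *Chd9* lay between -0.09 and 0.03. Apart from *Chd5*, no NuRD subunit was called, and *Chd4* stood at -0.14 and *Chd3* at -0.26 (adjusted p = 0.18 and 0.0834). *Atrx*, an X-linked remodeller that deposits a variant of histone H3 with DAXX, fell by 0.18 on the log2 scale (SE 0.05, adjusted p = 0.0234), with 445 to 516 CPM against 512 to 601, and its call was lost without cKO-E embryo C or D (adjusted p up to 0.0542). *Hells*, needed for DNA methylation in dividing cells, fell by 0.27 (adjusted p = 0.0401), with 128 to 159 CPM against 155 to 213. That call was lost without any of 6 embryos, with an adjusted p of 0.124 without cKO-E embryo C. Summed cycling cell markers were 1137 to 1484 CPM in cKO-E and 1468 to 1833 in ctrl, with 2 of 8 markers lower, 3 of 8 apical progenitor markers were lower and 1 higher, and their part in the falls of *Hells* and of *Chd7* was not tested. The 12 microglia markers listed, low in all libraries, summed to 37.3 to 47.5 CPM in cKO-E against 8.87 to 19.4. Only 4 of them passed the filter on low counts, and all 4 were higher. Such low genes can pass the filter through their level in cKO-E alone, so that count carries no weight. The part of microglia in the subunit levels was not tested.

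**Figure D2:**
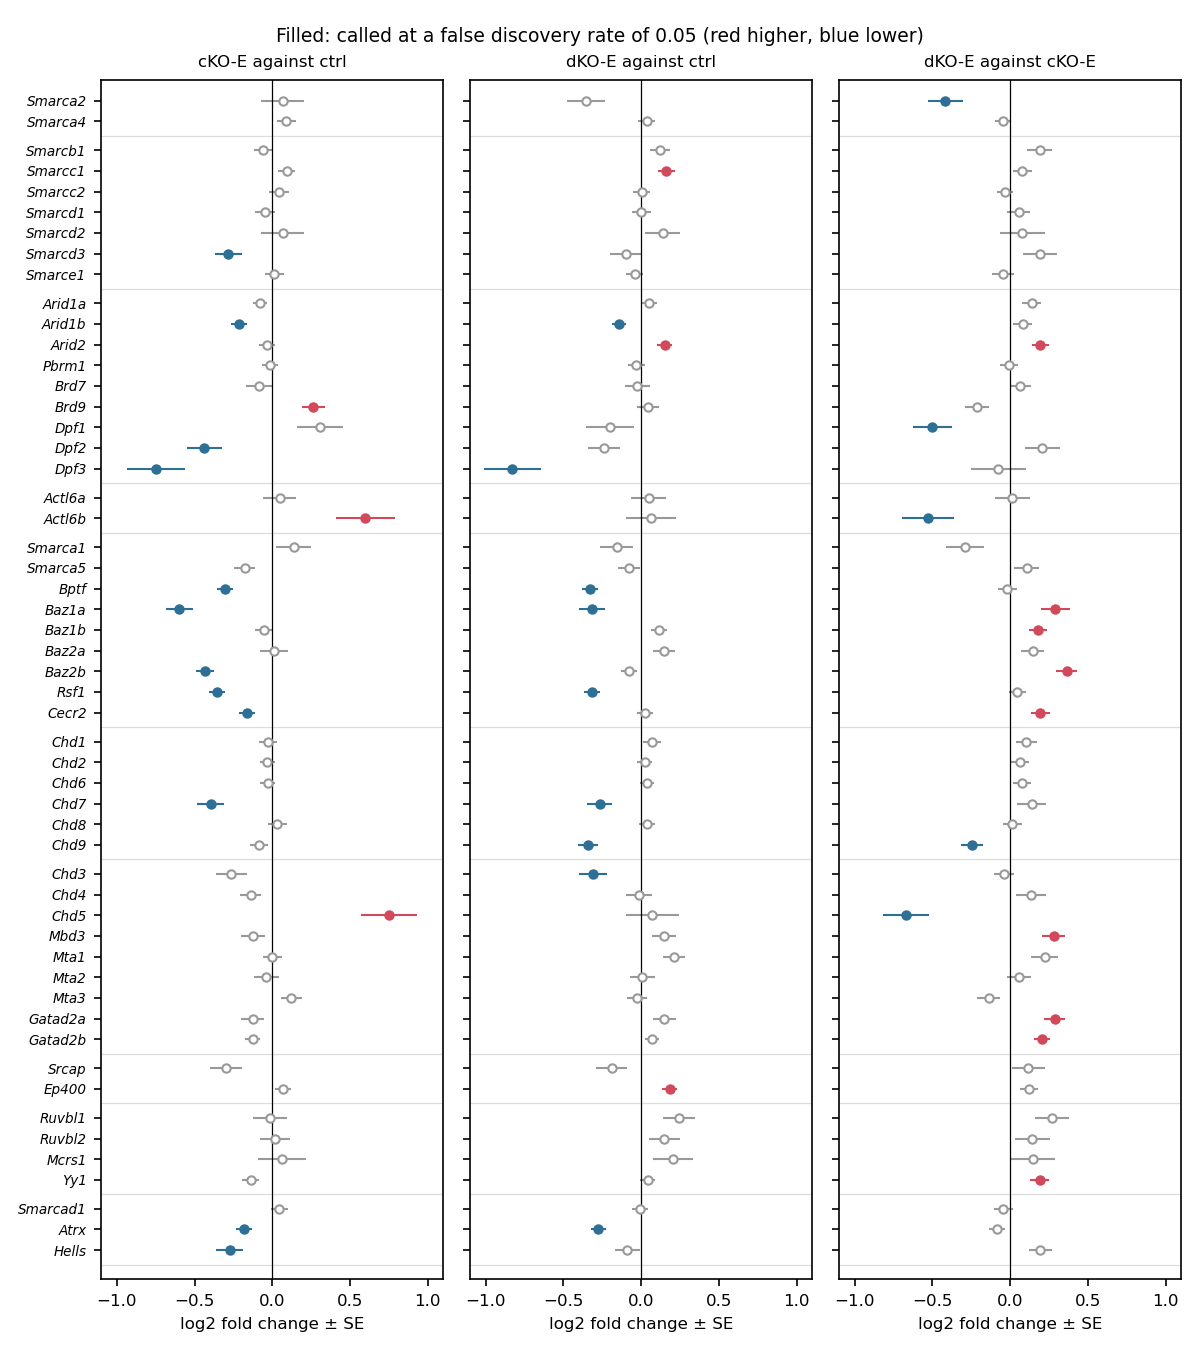
Log2 fold change with its SE for each of the 53 subunits in cKO-E against ctrl, dKO-E against ctrl and dKO-E against cKO-E, ordered by complex with grey lines between complexes. Filled points passed a false discovery rate of 0.05, and *Baz1a*, *Bptf* and *Rsf1* among the ISWI partners are filled on the lower side in both mutants.

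The second comparison asks which of these differences are also present when p53 is absent. In dKO-E against ctrl, 9 of 53 subunits fell and 3 rose, where 10% of the 11381 genes tested were lower and 5.45% higher, and 22.6% of subunits against 15.5% of all genes were called in either direction. The medians were 0.01 for subunits and 0.01 for all genes. At a false discovery rate of 0.001, where 2.34% of genes were lower, 3 subunits were lower. *Bptf* read 266, 314, 301, 299, 268, 301 and 319 CPM in dKO-E embryos A to G. Every one lay below the ctrl range of 347 to 391, and the log2 fold change was -0.33 (SE 0.05, adjusted p = 0.000189). *Rsf1* read 204 to 233 CPM with a median of 219, also below every ctrl embryo (log2 fold change -0.32, SE 0.05, adjusted p = 0.000403). *Atrx* (ENSMUSG00000031229.16, chromosome X from 105797615 to 105929403) read 420 to 478 CPM against 512 to 601 (log2 fold change -0.27, SE 0.05, adjusted p = 0.000782). In batch 2 alone none of these 3 was called, with log2 fold changes of -0.24 for *Bptf*, -0.25 for *Rsf1* and -0.15 for *Atrx* (adjusted p = 0.182, 0.234 and 0.379). These were the 3 subunits whose dKO-E and ctrl ranges did not overlap with dKO-E lower, and 3.08% of all genes had that pattern.

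The other 6 falls in dKO-E overlapped with ctrl. *Chd9* read 183 to 258 CPM against 232 to 295 (log2 fold change -0.34, SE 0.07, adjusted p = 0.00139), and *Dpf3* read 16.9 to 36.5 against 25.3 to 60.4 (log2 fold change -0.83, SE 0.18, adjusted p = 0.00403). Neither was called in batch 2 alone (adjusted p = 0.213 and 0.255). *Baz1a* read 98.0, 122, 94.6, 98.8, 78.6, 92.3 and 106 CPM in dKO-E embryos A to G, with a mean between those of cKO-E and ctrl, and fell by 0.32 on the log2 scale (SE 0.08, adjusted p = 0.0138). Its fall was -0.17 in batch 1 (adjusted p = 0.242) and -0.48 in batch 2. *Chd7* stood at -0.27 over all embryos (adjusted p = 0.0308), -0.10 in batch 1 and -0.43 in batch 2, and with litter as a block its log2 fold change was near 0 (0.0046). The *Chd7* call was lost on leaving out any of 7 embryos, with an adjusted p of 0.0795 without dKO-E embryo E. *Arid1b*, at -0.14 (adjusted p = 0.0387), lost its call on leaving out any of 13 of the 14 embryos, with an adjusted p of 0.0981 without dKO-E embryo G. *Chd3* fell by 0.31 (adjusted p = 0.0215), and the adjusted p was 0.0515 without ctrl embryo A. It stood at -0.45 in batch 1 and -0.16 in batch 2 (adjusted p = 0.00323 and 0.543). Projection neuron markers, of which 2 of 9 were lower and all 9 had log2 fold changes below 0, summed to 2594 to 3718 CPM in dKO-E against 3015 to 4764 in ctrl, and their part in the falls of *Dpf3* and *Chd3* was not tested.

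The 3 rises in dKO-E were small. *Ep400*, the ATPase that exchanges histone H2A.Z in the TIP60 complex, read 329 to 383 CPM against 297 to 329 (log2 fold change 0.18, SE 0.05, adjusted p = 0.016). *Smarcc1* stood at 0.16 and the PBAF subunit *Arid2* at 0.15 (adjusted p = 0.0404 and 0.0337). The calls of *Smarcc1* and *Arid2* were lost on leaving out any of 8 and any of 7 embryos, with adjusted p up to 0.0841 without ctrl embryo F and 0.0766 without ctrl embryo C. None of the 3 was called within batch 1 or batch 2 alone.

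**Figure D3:**
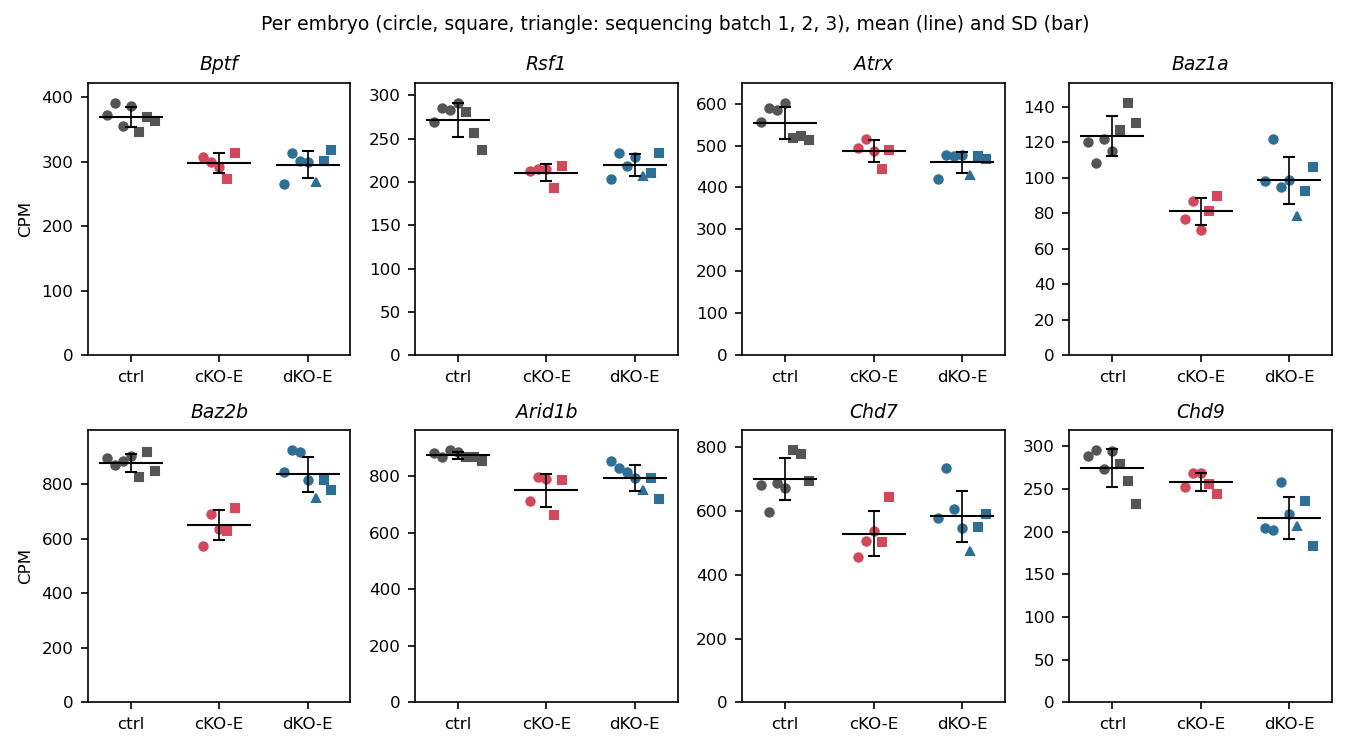
CPM of 8 subunits called lower in at least 1 mutant, 1 point per embryo in order of its letter within batch, with the mean (line) and SD (bar) of each genotype and the sequencing batch as the symbol. *Bptf* and *Rsf1* lie lower in every embryo of both mutants than in every ctrl embryo, while *Baz2b* does so in cKO-E only, with dKO-E at 750 to 924 CPM against 825 to 920 in ctrl.

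Over both comparisons, which share the same ctrl embryos, 7 subunits were called lower in each mutant, namely *Bptf*, *Rsf1*, *Baz1a*, *Atrx*, *Dpf3*, *Chd7* and *Arid1b*, where 4.81% of the 11331 genes tested in both were lower in both. With litter as a block only *Bptf* and *Rsf1* were lower in both: *Dpf3* and *Arid1b* were then called in neither mutant, *Atrx* not in cKO-E (adjusted p = 0.134), and *Baz1a* and *Chd7* not in dKO-E (adjusted p = 0.634 and 0.991). In dKO-E against ctrl only litter 1 holds both genotypes. The block there compares ctrl embryos A and B with dKO-E embryos A to C, all of batch 1. A further 5 were called lower in cKO-E alone and 2 in dKO-E alone, and 33 were called in neither. The direct comparison of dKO-E with cKO-E tests whether the mutants differ. For *Bptf* the log2 difference was -0.02 (95% interval -0.14 to 0.11), for *Rsf1* 0.05 (-0.07 to 0.16) and for *Atrx* -0.08 (-0.20 to 0.03). *Arid1b* stood at 0.08 (-0.04 to 0.21), *Chd7* at 0.14 (-0.05 to 0.33) and *Dpf3* at -0.08 (-0.45 to 0.29), and only *Baz1a* was called, being higher in dKO-E.

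The subunits that fell had longer spans, by their median, than those not called. *Bptf*, *Rsf1* and *Atrx* span 99.0, 113 and 132 kb. The median span was 117 kb for the 12 subunits lower in cKO-E and 45.1 kb for the 38 not called, and in dKO-E it was 132 kb for the 9 lower subunits, 117 kb for the 3 higher and 38.9 kb for the 41 not called. The median of mean CPM was also higher in the lower subunits than in those not called, at 227 against 138 in cKO-E and 323 against 125 in dKO-E. Spearman's rho of log2 fold change with span over the 53 genes was -0.28 for cKO-E and -0.35 for dKO-E, and over all genes tested it was 0.02 and -0.23. Genes share libraries and are no independent replicates, so these values are a description.

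Because INO80 is known to work with YY1, the promoters of the subunits were searched for the core of the YY1 motif, AANATGGC, on both strands. RefSeq promoters of GRCm38.p6, from 250 bases before to 50 after the annotated start, were given for 43 of the 53 subunits, and the motif was in 8 of them (18.6%), against 6.96% of the 27025 genes with a promoter. Counted after the calls were known, of the 7 subunits called lower in both mutants, *Bptf*, *Dpf3*, *Atrx* and *Arid1b* had a promoter entry and each held the motif, as did 4 of the 39 other subunits. *Rsf1*, *Baz1a* and *Chd7* had no entry. Of the genes with an entry among the 7, only *Bptf* was lower in both mutants with litter as a block. The 7 were picked on these same data, so the split is a description and no test. The 30 bases around the match follow for 7 of the 8 subunits, 5′ to 3′ on the strand of the gene, so that the members that fell and those that were not called can be read side by side. Capitals mark the core or its reverse complement, and a match is only a run of letters.
Bptf, lower in both, chr11:107132104-107132133, minus strand: agggaagaaacAAGATGGCggctgcaggcg
Dpf3, lower in both, chr12:83487693-83487722, minus strand: tacattgtagcAAAATGGCgactgtcattc
Atrx, lower in both, chrX:105929323-105929352, minus strand: gcctcggcccaacAAAATGGCgtcggcata
Arid1b, lower in both, chr17:4994925-4994954, plus strand: gtcacgacctgAACATGGCccatagcgcga
Smarcd1, not called, chr15:99702307-99702336, plus strand: ggcggctccgggAAGATGGCggcccgggcg
Chd4, not called, chr6:125096162-125096191, plus strand: ccggagccggaGCCATTTTccccccttcgg
Arid1a, not called, chr4:133756983-133757012, minus strand: gcacatcctctGCCATTTTcagccggttgc

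In *Bptf*, *Dpf3* and *Atrx* the first base of the core lies 26, 26 and 34 bases from the RefSeq start of the transcript, in the orientation of the gene. In *Smarcd1*, whose motif lies 33 bases from the start in the same orientation, the log2 fold changes were -0.05 in cKO-E and 0.00 in dKO-E. In *Chd4* and *Arid1a* the motif is on the opposite strand, and their log2 fold changes against ctrl ranged from -0.14 to 0.05. In *Arid1b* the motif stands 138 bases before the RefSeq start used here. By the GENCODE positions it lies inside the gene, which begins at 4994332.

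The third comparison, dKO-E with cKO-E, asks what differs between *Ino80* mutants with and without p53. The mutants share no litter, so every difference below is one of genotype and litter together. Here 9 of 53 subunits were higher and 5 lower in dKO-E, where 5.59% of the 11746 genes tested were higher and 9.42% lower, and 26.4% of subunits against 15.0% of all genes were called in either direction. At a false discovery rate of 0.001, where 0.383% of genes were higher, 1 subunit was higher. That was *Baz2b*, at 750 to 924 CPM in dKO-E against 575 to 713 in cKO-E (log2 fold change 0.36, SE 0.07, adjusted p = 0.000962). All 7 dKO-E embryos were above all 5 cKO-E embryos, and against ctrl the dKO-E level was not called (log2 fold change -0.08, 95% interval -0.18 to 0.03). In batch 2 alone the difference between the mutants was 0.22 (adjusted p = 0.356). Most dKO-E embryos were male and most cKO-E embryos female. With sex as a covariate, 14 subunits were higher and 7 lower in dKO-E, where 20.8% of all genes were called in either direction.

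The other subunits with higher levels in dKO-E included 3 of NuRD. *Gatad2a* and *Gatad2b*, the p66 proteins that join the histone deacetylase and ATPase modules of the complex, read 134 to 167 CPM against 119 to 125, and 282 to 313 against 249 to 268. *Mbd3* read 121 to 148 CPM against 100 to 120. In these 3 genes no dKO-E embryo overlapped the cKO-E range, with log2 fold changes of 0.29, 0.21 and 0.28 (SE 0.07, 0.05 and 0.07, adjusted p = 0.00825, 0.0121 and 0.0129), and the *Mbd3* call was lost without cKO-E embryo C (adjusted p = 0.0506). *Gatad2b* and *Mbd3* were called in neither batch alone (adjusted p = 0.085 and 0.658, and 0.151 and 0.208), and *Gatad2a* was not in batch 2 (0.553). In all, 6 subunits were separated with dKO-E higher, where 2.26% of genes were. None of the 3 NuRD genes was called against ctrl in either mutant, and the ctrl levels lay between the mutants, at 135 ± 12.1, 280 ± 3.10 and 122 ± 12.8 CPM (SD, n = 7).

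*Baz1a*, *Cecr2*, *Arid2*, *Yy1* and *Baz1b* were also higher in dKO-E, with log2 fold changes from 0.18 to 0.29 and adjusted p from 0.0182 to 0.0434. The *Arid2* call was lost without cKO-E embryo B (adjusted p = 0.0552). The calls of the other 4 were lost on leaving out any of 5 to 10 of the 12 embryos, with adjusted p of 0.138 for *Baz1a*, 0.119 for *Yy1* and 0.13 for *Baz1b* without cKO-E embryo C, and 0.0717 for *Cecr2* without cKO-E embryo A. Cycling cell markers, all 8 with log2 fold changes above 0 and 3 of them called higher, summed to 1271 to 1930 CPM in dKO-E against 1137 to 1484 in cKO-E.

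The 5 subunits with lower levels in dKO-E included *Chd5*, *Actl6b*, *Dpf1* and *Smarca2*, which are known to be more abundant in neurons or other differentiated cells. *Dpf3* and *Chd3*, also known from neurons, were not called, with means of 25.7 and 310 CPM in dKO-E against 27.5 and 318 in cKO-E. *Chd5* read 9.49 to 17.2 CPM in dKO-E against 14.2 to 22.5 (log2 fold change -0.67, SE 0.15, adjusted p = 0.00393). *Dpf1* read 42.5, 37.8, 47.2, 44.3, 30.0, 26.9 and 28.5 CPM in dKO-E embryos A to G and 49.6 to 60.8 in cKO-E, without overlap (log2 fold change -0.50, SE 0.12, adjusted p = 0.00965), and 4.50% of all genes were separated in that direction. *Actl6b* stood at -0.53 and *Smarca2* at -0.42 (SE 0.17 and 0.11, adjusted p = 0.0372 and 0.015). Without cKO-E embryo C, the highest library for both genes at 36.8 and 179 CPM, neither was called (adjusted p = 0.155 and 0.0743), and the *Actl6b* call was lost on leaving out any of 7 embryos. Within batch 2 the differences were -0.13 for *Chd5*, -0.21 for *Actl6b* and -0.09 for *Smarca2*. *Dpf1* was -0.33 in batch 1 (adjusted p = 0.0941) and -1.0 in batch 2 (adjusted p = 0.00724). *Chd9*, the last of the 5, stood at -0.25 (adjusted p = 0.0203), with adjusted p up to 0.0575 without cKO-E embryo B or C. *Chd9* was called in neither batch alone (adjusted p = 0.122 and 0.472). Without the 3 shallowest libraries neither *Chd9* nor *Dpf1* was called.

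**Figure D4:**
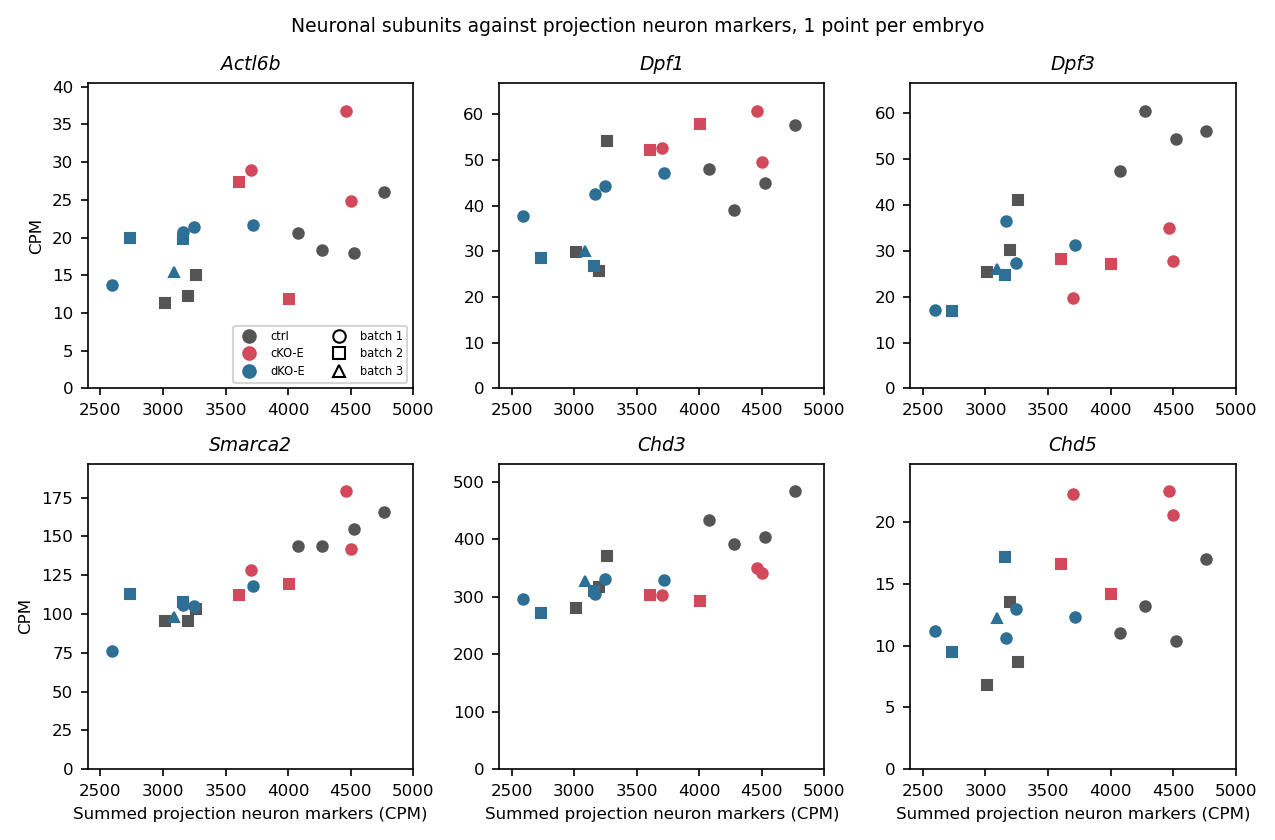
CPM of 6 subunits known from neurons against the summed CPM of 10 projection neuron markers, 1 point per embryo, with the genotype as colour and the sequencing batch as symbol. The ctrl embryos of batch 1 (4078 to 4764 CPM of markers) and batch 2 (3015 to 3263) stand apart along both axes for *Actl6b*, *Dpf3*, *Smarca2* and *Chd3*.

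Neuron markers moved along with these genes. Summed projection neuron markers were 2594 to 3718 CPM in dKO-E and 3605 to 4500 in cKO-E, with 4 of 9 markers tested lower and none higher, and *Stmn2* had the largest of the called differences at -0.71 (adjusted p = 7.26e-05). Cajal-Retzius markers summed to 452 to 637 CPM against 834 to 956, with 3 of 4 lower. Interneuron markers summed to 30.5 to 70.8 CPM against 66.7 to 122. Of 8 listed, 4 passed the filter on low counts, and these were lower. Only 3 passed it in dKO-E against ctrl. Such low markers can pass through their level in cKO-E alone, so that count carries no weight. The part of these neuron markers in the differences of *Chd5*, *Actl6b*, *Dpf1* and *Smarca2* was not tested. In dKO-E against ctrl, all 9 projection neuron markers tested had log2 fold changes below 0. *Actl6b* and *Chd5* averaged 19 and 12.3 CPM in dKO-E and 17.3 and 11.5 in ctrl. *Dpf1* and *Smarca2* averaged 36.7 and 103 CPM in dKO-E and 42.8 and 129 in ctrl. The median ratio per kb of *Dpf1* to *Dpf2* was 2.58 in cKO-E, 1.57 in ctrl and 1.44 in dKO-E, and that of *Chd5* to *Chd4* was 0.0320, 0.0153 and 0.0188.

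The subunits that INO80 shares with other complexes were called against ctrl in neither mutant. *Ruvbl1* and *Ruvbl2*, the paired AAA+ ATPases of INO80, SRCAP and TIP60, had log2 fold changes of -0.01 (95% interval -0.25 to 0.22) and 0.02 (-0.19 to 0.22) in cKO-E, and of 0.25 (0.03 to 0.46, adjusted p = 0.113) and 0.15 (-0.06 to 0.36) in dKO-E. *Mcrs1* stood at 0.07 (-0.26 to 0.39) and 0.21 (-0.06 to 0.47), and *Actl6a* at 0.05 (-0.18 to 0.27) and 0.05 (-0.19 to 0.28). *Yy1* read 104 to 127 CPM in cKO-E, 124 to 138 in ctrl and 125 to 143 in dKO-E. *Yy1* stood at -0.14 (-0.26 to -0.02, adjusted p = 0.105) in cKO-E and at 0.04 (-0.06 to 0.14) in dKO-E. *Ruvbl1*, *Ruvbl2* and *Mcrs1*, whose intervals are wide, averaged 31.2, 39.9 and 13.1 CPM in ctrl. Other subunits outside the calls included *Srcap*, at -0.30 (adjusted p = 0.0516) in cKO-E and -0.19 in dKO-E, and the ATPase *Smarcad1*, at 0.04 and -0.01. In all, 26 of the 53 subunits were called in none of the 3 comparisons.

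Further genes of the same complexes, listed by name, were examined alongside. Of all genes tested, 9.88% were lower and 7.31% higher in cKO-E against ctrl. In dKO-E against ctrl these shares were 10% and 5.45%, and in dKO-E against cKO-E 9.42% and 5.59%. Of 15 other SRCAP and EP400 subunits, 4 were lower in cKO-E and 4 lower and 1 higher in dKO-E. *Meaf6*, *Epc2* and *Morf4l1*, subunits of histone acetyltransferase complexes, were lower in both (log2 fold changes -0.43, -0.26 and -0.28 in cKO-E, and -0.52, -0.22 and -0.21 in dKO-E). Of 11 other BAF subunits, 2 were higher and 1 lower in cKO-E and 2 were lower in dKO-E, among them *Ss18l1*, the neuronal CREST subunit, at 0.29 in cKO-E. Of 6 other NuRD subunits, *Cdk2ap1* alone was called, at -0.49 in cKO-E, and the ISWI partners *Pole3* and *Chrac1* had adjusted p of 0.210 or more in each comparison. Among 10 further INO80 subunits, 2 rose in cKO-E and 4 in dKO-E, *Ino80* itself and *Ino80d* in both. The value of *Ino80* sums over the whole gene and cannot show loss of the deleted exons. Of the ATRX and HELLS partners only *Cdca7*, which recruits HELLS, was called, with a higher level in dKO-E against cKO-E (0.46, adjusted p = 0.00372).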

How the data were processed

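RNA of E13.5 cortex from 19 embryos was depleted of ribosomal RNA and sequenced by Click-seq with molecular tags. The authors used bcl2fastq 2.17, cutadapt 1.13, STAR 2.5.2a on mm10, UMI-tools 0.5.3 for deduplication and HTSeq 0.6.1p1, and deposited whole-number counts per gene; their own tests used edgeR 3.20.9. The strand setting is not given in the sources used here.

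Between 23.3% and 31.8% of each library's reads were assigned to no single gene and were left out. Reads aligned to more than 1 place made up 14.9% to 20.9% of each library, and reads on no gene 4.96% to 12.5%. In CPM, 3 counts correspond to 0.371 to 3.65. Each comparison was fitted without covariates by the quasi-likelihood test of edgeR 4.0.16 (R 4.3.3) with TMM factors, a filterByExpr minimum of 10 and Benjamini-Hochberg adjustment over all genes tested, and was called at 0.05. An SE is the log2 fold change divided by the square root of F. Positions came from GENCODE M21 (51633 of 51912 identifiers found). Alternatives included DESeq2 1.42.0, other normalizations, covariates, blocks and single batches. The fit was tested on simulated data. Members and lists were chosen with earlier results of these data known. Named were members called in any comparison, exchangeable paralogues and subunits shared with INO80. *Dlx6os1* was left out because 2 identifiers carried its name. Python 3.11.15 and matplotlib 3.10.9 were used for levels and plots. The sequence around 1 promoter match is not reported here.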

Additional observations from a re-analysis of the deposited data

Results flagged for a closer look

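In 6 of the 159 sets of a subunit's values within a genotype, 1 embryo stood apart from the rest by Dixon's 95% criterion, which chance alone meets in about 1 of 20 sets. *Rsf1* was 193 CPM in cKO-E embryo D, with the nearest other embryo at 213 and the far end at 218. *Smarca5* was 113 CPM in dKO-E embryo A, below the nearest at 143, and *Smarcd3* was 45.2 CPM in ctrl embryo H, below the nearest at 57.8. On the high side were *Baz1b* at 563 CPM in dKO-E embryo B (nearest 509), *Arid1a* at 640 CPM in ctrl embryo B (nearest 598) and *Smarcb1* at 103 CPM in ctrl embryo B (nearest 95).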

How the results depend on the processing

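The 15, 12 and 14 subunits called in cKO-E against ctrl, dKO-E against ctrl and dKO-E against cKO-E had the same direction in batch 1 and in batch 2. They were called on these same embryos, so that agreement is largely fixed by the choice. In batch 2 alone, 4, 2 and 1 of them were called. With any 1 embryo left out, 9, 7 and 5 of the 15, 12 and 14 kept their calls. Under other settings 850 values of single subunits kept direction and side of the threshold, 306 kept direction only, and 1 reversed (*Chd7* in dKO-E against ctrl, 0.0046 with litter as a block). Of the counts, 128 stayed within 1.5 times and 42 did not. The cause of each change below was not tested, except that a stricter threshold or fewer embryos give fewer calls by construction.

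In cKO-E against ctrl, 12 lower subunits became 7 with litter as a block, 6 at a false discovery rate of 0.01, 4 at 0.001 and 4 in batch 2 alone, and the 3 higher became 1 at 0.01 and 0 at 0.001 or in batch 2. Leaving out 1 embryo gave 8 to 12 lower and 1 to 3 higher (1 without cKO-E embryo A, B or C). In dKO-E against ctrl, 9 lower became 5 at 0.01, 3 at 0.001 and 2 in batch 2. With litter as a block 1 higher and 6 lower were called, 5 of them among the 12 called without it, while calls over all genes fell from 15.5% to 5.14%; *Dpf3*, *Baz1a*, *Ep400*, *Arid2*, *Smarcc1*, *Arid1b* and *Chd7* lost their calls. The 3 higher became 1 by edgeR's likelihood-ratio test or with litter as a block, 6 with sex as a covariate, and 0 with no filter, with the letter block, at 0.01, at 0.001 or in batch 2. Leaving out 1 embryo gave 7 to 8 lower and 1 to 4 higher (1 without ctrl embryo A or I or dKO-E embryo C). In dKO-E against cKO-E, 9 higher became 14 with sex as a covariate, 4 with no filter or with the letter block, 3 in batch 1 alone, 2 at 0.01, 1 at 0.001, 0 in batch 2 and 3 without the 3 shallowest libraries. The 5 lower became 2 in batch 1, 2 at 0.01, 0 at 0.001, 1 in batch 2 and 3 without those libraries. Leaving out 1 embryo gave 4 to 9 higher and 2 to 6 lower (4 and 3 without cKO-E embryo B, 5 and 2 without C, and 5 higher without D). DESeq2 called 3 and 12, 4 and 9, and 8 and 5 higher and lower in the 3 comparisons.

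The label letters shared by the groups did not pair embryos. Deviations of same-lettered embryos correlated at -0.413 to 0.175, and 2 of 14 embryos correlated best with their own letter. With the letter as a replicate block, 2 subunits were higher and 11 lower in cKO-E against ctrl, 0 and 6 in dKO-E against ctrl, and 4 and 4 in dKO-E against cKO-E. A litter block could not be fitted between the mutants, which share no litter, and batch 3 holds 1 embryo. In dKO-E against ctrl the litter block rests on litter 1, the only litter with both genotypes. The settings of batch 2 alone and without the shallow libraries were chosen after seeing the data. Depth limits *Chd5*, *Actl6b* and *Mcrs1* most, where 3 counts are up to 3.65 CPM in the shallowest library.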
